A study of Homo sapiens with 6 samples.

Results

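Ribosome collision sensing and rescue was followed through 10 genes that were chosen by name: ZNF598, EDF1, ASCC3, ASCC2, NEMF, LTN1, MAP3K20, GIGYF2, PELO and HBS1L. All 10 were found among the 63086 genes of the deposited count table, and all 10 passed the filter on low counts that left 14905 genes for testing. The cells were HEK293T, an established human embryonic kidney line that carries the SV40 large T antigen. In one group, 100Q, depleted cells had been given queuine back, and 3 libraries were made. The sample characteristics give its dose as 100 nM, the treatment protocol gives 1 µM for 24 hours, and the dose is left unsettled here. The other group, 0Q, was kept without queuine and also gave 3 libraries. Both groups share the line and a medium with dialyzed serum, and both are a single line of T antigen cells in culture, not a tissue. The labels speak of triplicates without saying that these came from separate cultures. The p-values therefore reflect variation among these 6 libraries, part of which may be technical.

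Queuosine is a modified nucleoside in the anticodon of the 4 tRNAs that read codons for tyrosine, histidine, asparagine and aspartate. Mammalian cells make it from queuine taken up with food or serum. When a ribosome slows or stalls on a message, the ribosome behind can run into it, and the pair of collided ribosomes forms a surface that the cell recognises. ZNF598, a ubiquitin ligase, marks small-subunit proteins of collided ribosomes. EDF1 binds the same structure and brings in GIGYF2, which represses new initiation on that message together with the cap-binding protein EIF4E2. The helicase ASCC3 and its ubiquitin-binding partner ASCC2 pull the leading ribosome apart, while PELO and HBS1L release ribosomes stalled with an empty site. NEMF then holds the large subunit with its trapped nascent chain and recruits LTN1, the ubiquitin ligase that tags the chain for degradation. MAP3K20, the kinase also called ZAK, signals from collided ribosomes to the stress kinases p38 and JNK.

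The messages of these genes are themselves read by the queuosine tRNAs, and they differ in how. Codons for tyrosine, histidine, asparagine and aspartate made up 10.5% of the codons of GIGYF2 and 17.3% of those of ASCC2, the lowest and highest of the 10 genes. The median of 19751 coding genes was 13.6%, with 5 of the 10 genes above it and 5 below. The third base differed more. In ZNF598, 79.2% of these codons ended in C, and in ASCC2 74.0%, whereas the share was 24.2% in HBS1L, 32.1% in LTN1, 32.3% in ASCC3, 33.1% in NEMF and 36.5% in GIGYF2. EDF1 at 64.7%, PELO at 57.9% and MAP3K20 at 54.4% lay nearer to the median of coding genes, 57.1%. Of 19751 coding genes, 1.99% had a lower C-ending share than HBS1L and 85.8% a lower one than ZNF598. The 20 codons richest in these codons are shown for ZNF598 and ASCC2, with the highest C-ending shares, for HBS1L, with the lowest, and for NEMF, whose values are described most fully. LTN1 and ASCC3 had lower shares than NEMF and are not shown. Where several stretches tied, the first is shown. Capitals mark the queuosine-decoded codons, in the reading frame, from the GENCODE 44 transcripts.
ZNF598: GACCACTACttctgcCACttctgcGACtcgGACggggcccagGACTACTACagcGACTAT
ASCC2: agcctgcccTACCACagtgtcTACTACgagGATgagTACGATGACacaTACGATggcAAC
HBS1L: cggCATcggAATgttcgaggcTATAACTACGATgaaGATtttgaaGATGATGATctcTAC
NEMF: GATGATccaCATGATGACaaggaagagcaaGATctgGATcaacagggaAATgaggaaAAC

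The stretch of ZNF598 covers codons 209 to 228 (hg38 chr16:2002417-2002573, minus strand, 2 coding exons) and holds 11 such codons, 10 of them ending in C. That of ASCC2 covers codons 604 to 623 (chr22:29793410-29793469, minus strand, 1 coding exon), with 8 of 11 ending in C; it is the first of 10 stretches with 11, in which 5 to 8 ended in C. In HBS1L, codons 3 to 22 (chr6:135050625-135054685, minus strand, 2 coding exons) also held 11, but 3 ended in C, as in each of the 4 stretches with that count. In NEMF, codons 959 to 978 (chr14:49785315-49789166, minus strand, 3 coding exons) held 9, of which 2 ended in C. These are features of the messages, and decoding itself was not measured in these libraries. The plot of codon content shows where each gene stands.

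**Figure D1:**
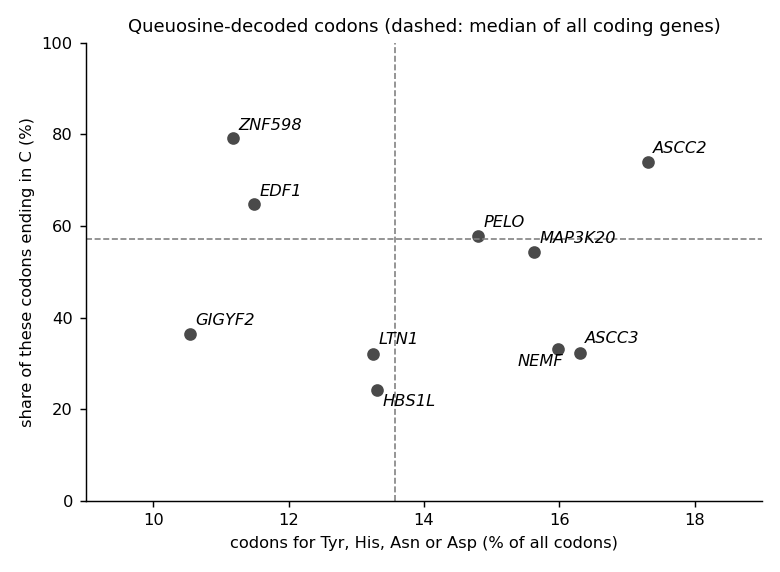
Share of codons for tyrosine, histidine, asparagine or aspartate (x axis, % of all codons) against the share of those codons that end in C (y axis, %), 1 point per gene, with the medians of 19751 coding genes as dashed lines. ZNF598 at 79.2% and ASCC2 at 74.0% stand at the top of the y axis and HBS1L at 24.2% at the bottom.

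Library totals ran from 4023956 to 11398835 estimated counts in 100Q and from 7264638 to 8035251 in 0Q. The 10 genes had 111 to 1579 counts per library, so that the counting error of the lowest value, MAP3K20 in 100Q replicate 2, was 9.49%. Of 9 genes named as marks of HEK293T cells 8 passed the filter, among them the neurofilament genes NEFL and NEFM. Another neurofilament gene, NEFH, did not, with 1 to 7 counts per library. PAX2 passed the filter with 13 to 87 counts per library and LHX1 with 19 to 61. Of 12 markers of differentiated kidney, blood, endothelium and fibroblasts none passed it; their summed counts were 7 to 13 in a 100Q library and 2 to 10 in a 0Q library, 7 of them were at 0 in every library, and no single value exceeded 6. Among the 8 tested HEK293T markers, log2 fold changes ran from -0.58 ± 0.22 for EYA1 to 0.56 ± 0.44 for LHX1 (SE), 2 were positive, LHX1 and PAX2 (0.47 ± 0.46, SE), and none passed the test (edgeR). EYA1 and KRT18 (-0.19 ± 0.11, SE) were lower in all 100Q libraries than in any of 0Q, as were 5.2% of all tested genes. The part of these markers in the values below was not tested. In bulk RNA, fewer cells that express a gene and less of its RNA per cell cannot be told apart.

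For each of the 10 genes, the 95% interval over these 6 libraries excluded a 1.5-fold difference between supplemented and depleted cells. Each interval was taken singly. None of the 10 passed the threshold, a Benjamini-Hochberg adjusted p under 0.05 in edgeR's quasi-likelihood test over all tested genes, and adjusted p ran from 0.987 to 0.996. Of all 14905 genes 2 passed, 0.0134%, both higher in 100Q; neither belongs to this pathway. DESeq2 and limma-voom called none of the 10 either, against 0.0738% and 0.00671% of all genes. At an unadjusted p under 0.05 there was 1 of the 10, NEMF, lower in 100Q, against 4.72% of all genes in either direction and 2.23% lower. Log2 fold changes, 100Q minus 0Q, ran from -0.26 to 0.12, with 7 of 10 below 0, against 50.6% of all tested genes. Their median was -0.11, against -0.0027 over all tested genes. Intervals that exclude a 1.5-fold change in either direction were found for all 10 genes and for 58.2% of all tested genes. That share includes genes with few counts. The median SE was 0.16 over all tested genes and 0.13 over those averaging at least 10 CPM, where all 10 genes stand. Leaving out 100Q replicate 1 made the median -0.18, and leaving out 100Q replicate 2, 100Q replicate 3 or 0Q replicate 2 made it -0.064, -0.072 or -0.074.

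**Figure D2:**
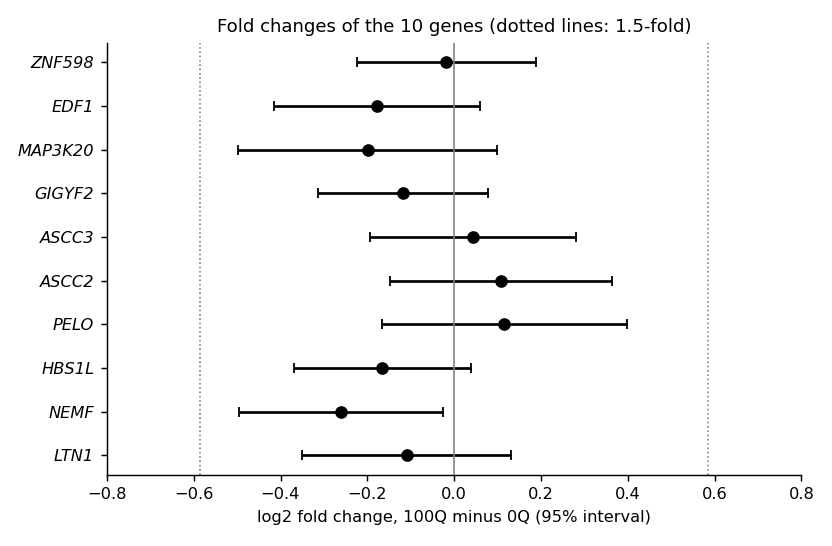
Log2 fold change of each of the 10 genes (100Q minus 0Q, x axis), with its 95% interval derived from edgeR's test. The solid line marks no difference and dotted lines a 1.5-fold change. All 10 intervals lie between the dotted lines, and that of NEMF, -0.50 to -0.025, is the one that does not reach 0.

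Among the sensors, ZNF598 (chr16:1997654-2009821, minus strand) had nearly equal means in both groups. It had 117, 118 and 105 CPM in 100Q replicates 1 to 3, against 128, 110 and 106 CPM in 0Q. CPM are counts relative to a library size corrected by TMM. The groups overlapped. Their means (SD, n = 3 each) were 114 ± 7.09 CPM for 100Q and 115 ± 11.7 CPM for 0Q, with a log2 fold change of -0.018 (95% interval -0.22 to 0.19). This sign carries no direction, since it was above 0 with library size only (0.00091) and when 0Q replicate 1 (0.066) or 100Q replicate 3 (0.039) was left out.

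EDF1 (chr9:136862119-136866308, minus strand) had 133, 144 and 105 CPM in 100Q, against 151, 147 and 130 CPM in 0Q. One library stood out: 100Q replicate 3, the deepest, was below every other, and the remaining 100Q values fell within the range of 0Q. The means (SD, n = 3 each) were 127 ± 20.2 CPM for 100Q and 143 ± 11.2 CPM for 0Q. The log2 fold change was -0.18 (95% interval -0.41 to 0.058), -0.043 without that library and -0.28 without 100Q replicate 2. Its spread within groups, an SD of 0.19 on the log2 scale, was the widest of the 10 genes; the median over genes averaging at least 10 CPM was 0.16, and 8 of the 10 were below it.

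The ratio of ZNF598 to EDF1 in a library sets 1 sensor against the other and needs no library total. On the log2 scale and per kb of exon it was -2.10 ± 0.15 in 100Q and -2.26 ± 0.093 in 0Q (SD, n = 3 each). The difference was 0.16 (two-sided exact permutation p = 0.2, and 0.333 after Benjamini-Hochberg adjustment over 5 ratios). In this test 3 libraries against 3 allow no p below 0.1, so none of the 5 ratios could pass at any difference.

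MAP3K20 (chr2:173075435-173268015, plus strand), the kinase of the ribotoxic stress response, had the lowest single count of the 10 genes, 111 in 100Q replicate 2. It was at 32.3, 27.9 and 33.9 CPM in 100Q, against 32.2, 37.0 and 39.6 CPM in 0Q. The lowest value belonged to 100Q replicate 2 and the highest to 0Q replicate 3, and the groups overlapped between 32.2 and 33.9 CPM. Means (SD, n = 3 each) were 31.4 ± 3.13 CPM for 100Q and 36.3 ± 3.74 CPM for 0Q, a log2 fold change of -0.20 (95% interval -0.50 to 0.099).

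GIGYF2 (chr2:232697299-232860605, plus strand), the repressor of initiation, had 99.7, 87.6 and 90.8 CPM in 100Q, against 101, 105 and 95.9 CPM in 0Q. Only 100Q replicate 1 reached into the range of 0Q. The log2 fold change was -0.12 (95% interval -0.31 to 0.078). Its cap-binding partner EIF4E2 averaged 60.7 ± 2.61 CPM for 100Q and 64.5 ± 4.22 CPM for 0Q (SD, n = 3 each), a log2 fold change of -0.091 (-0.31 to 0.13). The log2 ratio of GIGYF2 to EIF4E2 was 0.18 ± 0.082 in 100Q and 0.21 ± 0.14 in 0Q, with overlapping groups (difference -0.033; exact permutation p = 0.8, adjusted over 5 ratios 1).

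**Figure D3:**
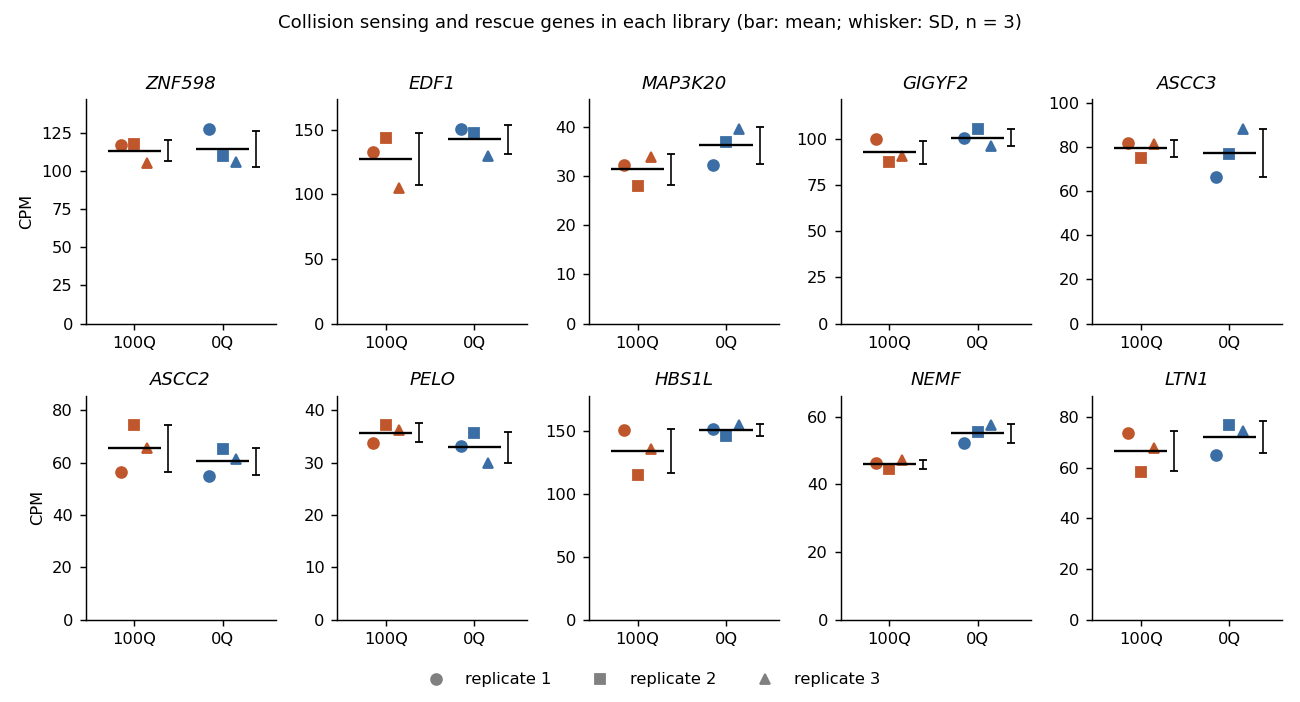
CPM of the 10 genes in each library, 1 panel per gene, with 100Q (orange) left of 0Q (blue), replicates by marker shape, the mean as a bar and the SD (n = 3) as a whisker beside it. NEMF is the 1 panel in which no 100Q point reaches a 0Q point; the other 9 overlap.

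The splitting helicase ASCC3 (chr6:100508194-100881372, minus strand) had 81.6, 74.8 and 81.4 CPM in 100Q, against 66.4, 76.6 and 88.2 CPM in 0Q. All 100Q values lay inside the range of 0Q, where replicates 1 and 3 were the lowest and highest of the 6. The log2 fold change was 0.044 (95% interval -0.19 to 0.28) and was -0.053 when 0Q replicate 1 was left out. ASCC2 (chr22:29788609-29838304, minus strand) had 56.2, 74.3 and 65.6 CPM in 100Q, against 54.9, 65.2 and 61.3 CPM in 0Q. Its value in 100Q replicate 2 was above the other 5, and the log2 fold change of 0.11 (-0.15 to 0.36) was 0.018 without it. The log2 ratio of ASCC3 to ASCC2 was -0.83 ± 0.26 in 100Q and -0.77 ± 0.16 in 0Q (SD, n = 3 each; difference -0.058, exact permutation p = 1, also after adjustment). That difference turned to 0.080 without 100Q replicate 2 and to 0.032 without 0Q replicate 3.

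The rescue factors PELO and HBS1L act as a pair and had fold changes of opposite sign. PELO (chr5:52787916-52804044, plus strand) had 33.7, 37.2 and 36.2 CPM in 100Q, against 33.2, 35.7 and 29.9 CPM in 0Q. The groups overlapped, and the log2 fold change was 0.12 (95% interval -0.17 to 0.40), 0.049 without 0Q replicate 3 and 0.18 without 0Q replicate 2. PELO lies within ITGA1, an integrin gene on the same strand that shares 499 exonic bases with it, and its estimated counts were fractional in all 6 libraries. With the counts of both genes summed, an alternative chosen after the data were seen, the log2 fold change was 0.16 (-0.13 to 0.44).

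HBS1L (chr6:134960378-135103056, minus strand), the GTPase of the pair, had 150, 115 and 135 CPM in 100Q, against 151, 145 and 155 CPM in 0Q. The means (SD, n = 3 each) were 134 ± 17.5 CPM for 100Q and 150 ± 4.62 CPM for 0Q. In 100Q, replicate 2 was lowest and replicate 1 was inside the range of 0Q. The log2 fold change was -0.17 (95% interval -0.37 to 0.038), -0.080 without 100Q replicate 2 and -0.25 without 100Q replicate 1. The log2 ratio of HBS1L to PELO was 0.81, 0.29 and 0.56 in 100Q, against 0.84, 0.68 and 1.03 in 0Q. It was the widest of the 5 differences between groups, at -0.30 (exact permutation p = 0.2, adjusted over 5 ratios 0.333). With 3 libraries against 3 no p can be below 0.1, so this test could not pass at any difference. The groups overlapped, with 100Q replicate 1 above 0Q replicate 2, and the difference was -0.16 without 100Q replicate 2.

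NEMF (chr14:49782083-49852821, minus strand), which starts the quality control of the trapped chain, was the 1 gene whose groups lay apart. It had 46.2, 44.4 and 47.1 CPM in 100Q, against 52.2, 55.6 and 57.6 CPM in 0Q. Every 100Q library was below every 0Q library, which was so for 5.2% of all tested genes, with 5.39% on the other side. The means (SD, n = 3 each) were 45.9 ± 1.35 CPM for 100Q and 55.1 ± 2.72 CPM for 0Q. The log2 fold change was -0.26 ± 0.11 (SE; 95% interval -0.50 to -0.025), with an unadjusted p of 0.0322. It did not pass over all genes (edgeR, adjusted p = 0.987). The libraries of each group were closely spaced, with a within-group SD of 0.059 on the log2 scale, the narrowest of the 10 genes. In 100Q the SD was 2.95% of the mean, while the counting error of the lowest value, 177 counts in 100Q replicate 2, was 7.53%. That spacing is closer than counting error allows for and is no measure of precision.

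The value of NEMF is tied to its neighbour KLHDC2, a substrate receptor of a ubiquitin ligase that reads the ends of proteins. KLHDC2 is annotated on the opposite strand, the genes share 3010 exonic bases, and both had fractional counts in all 6 libraries. The strand setting of the counting is not given in the sources used here, so reads from the shared bases cannot be assigned with certainty. KLHDC2 had 47.9, 67.0 and 61.0 CPM in 100Q, against 75.1, 64.8 and 65.1 CPM in 0Q, with overlapping groups and a log2 fold change of -0.22 (95% interval -0.49 to 0.048). With the counts of both genes summed, an alternative chosen after the data were seen, the log2 fold change was -0.24 (-0.43 to -0.047; edgeR, adjusted p = 0.987). The sum does not separate the genes.

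LTN1 (chr21:28928144-28992956, minus strand), the ligase that NEMF recruits, had 73.7, 58.3 and 68.0 CPM in 100Q, against 65.2, 76.9 and 74.4 CPM in 0Q. Its groups overlapped, with 100Q replicate 2 lowest, and the log2 fold change was -0.11 (95% interval -0.35 to 0.13), -0.033 without that library and -0.18 without 100Q replicate 1. Per library, the log2 ratio of NEMF to LTN1 was -0.70, -0.42 and -0.56 in 100Q, against -0.35, -0.49 and -0.40 in 0Q. The difference of -0.15 was within the overlap of the groups (exact permutation p = 0.2, adjusted over 5 ratios 0.333).

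The genes whose pattern over the 6 libraries was nearest to that of NEMF were RDX, which encodes the membrane linker radixin, NIPBL, the loader of cohesin, and SH3BGRL. Likeness was the root mean square difference of log2 CPM after each gene's own mean was taken off, over 10584 genes averaging at least 10 CPM. It was 0.021 for RDX, 0.023 for NIPBL and 0.028 for SH3BGRL, against a median of 0.20. All 3 were below 0Q in every 100Q library, with log2 fold changes of -0.23 ± 0.085, -0.24 ± 0.093 and -0.27 ± 0.11 (SE), and none passed the test. They were picked for this likeness, so their values are a description.

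Levels can be set side by side between genes once they are divided by length. Per kb of merged exon, EDF1 was highest at 104 ± 16.5 CPM per kb in 100Q and 117 ± 9.15 in 0Q (SD, n = 3 each), above 98.4% of tested genes. ZNF598 followed at 24.2 ± 1.51 CPM per kb in 100Q and 24.4 ± 2.49 in 0Q. HBS1L came next, at 12.1 ± 1.58 CPM per kb in 100Q and 13.6 ± 0.417 in 0Q. ASCC2, at 12.1 ± 1.67 CPM per kb in 100Q and 11.2 ± 0.961 in 0Q, overlapped HBS1L over the 6 libraries.

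PELO, LTN1, ASCC3, GIGYF2 and NEMF formed a run in which each overlapped the next, with means over all 6 libraries of 7.84, 7.82, 6.67, 6.25 and 5.59 CPM per kb. MAP3K20 was lowest, at 2.27 ± 0.227 CPM per kb in 100Q and 2.63 ± 0.271 in 0Q, above 31.6% of tested genes. The highest and lowest means of the 10 differed 45.1-fold. Places in this order were the same in 100Q and 0Q for 6 of the 10 genes; HBS1L and ASCC2 changed places, as did PELO and LTN1, and both are overlapping neighbours.

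Length itself is uncertain where a gene has many annotated transcripts, and the order depends on it. With the length of the main coding transcript in place of merged exons, MAP3K20 had 8.77 CPM per kb and PELO, at 7.84, was lowest, GIGYF2 had 12.4, and 3 of the 10 genes kept their place. Ratios between genes move as well: with that length the log2 ratio of GIGYF2 to EIF4E2 was -2.41 in 100Q and -2.37 in 0Q, and that of NEMF to LTN1 was -0.13 in 100Q and 0.015 in 0Q, while differences between groups do not depend on length. EDF1 and ZNF598 stayed highest, at 204 and 33.9 CPM per kb, and the highest and lowest means differed 26.0-fold.

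**Figure D4:**
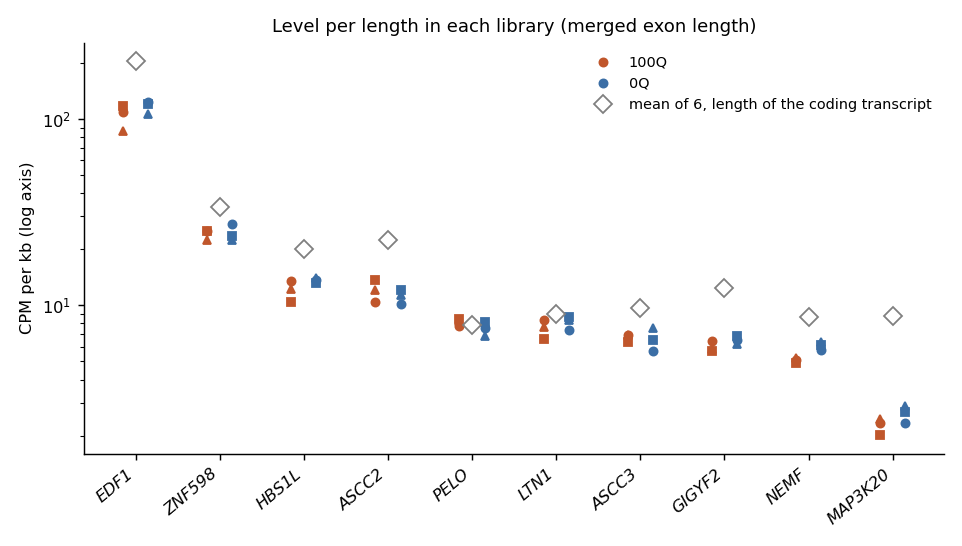
Level of each gene per kb of merged exon (y axis, CPM per kb, log axis) in each library, 100Q (orange) left of 0Q (blue), with markers by replicate as circles, squares and triangles for 1, 2 and 3; open diamonds give the mean of 6 libraries with the length of the coding transcript. EDF1 stands above all others in every library, and MAP3K20 moves most between the lengths, with means of 2.45 and 8.77 CPM per kb.

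Other genes of the pathway were taken as 6 lists with 55 genes in all, and all 55 were tested. None passed over all genes (edgeR, adjusted p 0.987 to 0.999; 0 with DESeq2 and limma-voom), 28 had positive and 27 negative fold changes, and 1 had an unadjusted p under 0.05, against 4.72% of all genes. Their median log2 fold change was 0.0051. The groups lay apart for 6 of them, 2 higher and 4 lower in 100Q, against 10.6% of all genes.

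That 1 gene was GIGYF1, the paralog of GIGYF2, with 95.9, 110 and 93.2 CPM in 100Q, against 86.1, 85.7 and 78.7 CPM in 0Q. All 100Q libraries were above those of 0Q, against 5.39% of all tested genes. The log2 fold change was 0.25 (95% interval 0.041 to 0.45), without passing (edgeR, adjusted p = 0.987). GIGYF2 itself had -0.12 (-0.31 to 0.078), and the difference between the paralogs was not tested. In the same list of 9 mRNA silencing and decay genes, SKIC2, the helicase that feeds the cytoplasmic exosome, had -0.23 ± 0.11 (SE), and the median was -0.032.

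Of 12 further collision and ubiquitin factors, RNF25 and RNF14, ubiquitin ligases that act on factors trapped in stalled ribosomes, had -0.31 ± 0.17 and -0.22 ± 0.12 (SE). Both were below 0Q in every 100Q library, against 5.2% of all tested genes. Neither passed, and the median of the list was 0.022. Among 5 other splitting factors, TRIP4, a subunit of the complex of ASCC3 and ASCC2, had -0.34 ± 0.22 and the GTPase GTPBP1 had 0.13 ± 0.088 (SE), with overlapping groups. Among 8 other genes of nascent chain quality control, NPLOC4, a cofactor of the segregase VCP, had 0.085 ± 0.084, and KLHDC10, which binds the alanine tails that NEMF adds, had -0.086 ± 0.10 (SE). The groups of NPLOC4 overlapped. KLHDC10 was at 53.0 to 53.1 CPM in 100Q, below the 55.6 to 56.9 CPM of 0Q, against 5.2% of all tested genes. The counting error of its lowest value, 211 counts in 100Q replicate 2, was 6.88%, wider than the spacing within 100Q.

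A list of 11 genes of stress kinase signalling, which holds MAP kinases, EIF2AK4 and its inhibitor IMPACT, had a median of -0.027, with EIF2AK4 (GCN2), the kinase that senses stalled ribosomes, at -0.15 ± 0.14 and the JNK activator MAP2K7 at 0.10 ± 0.096 (SE). The 10 genes that stress signalling induces had a median of 0.12 and wider errors. The intervals of 3 of them excluded a 1.5-fold change, against 58.2% of all tested genes. Those of 8 excluded a 2-fold change, against 75.9% of all tested genes. ATF3, a transcription factor induced by JNK and p38, averaged 55.7 ± 2.51 CPM for 100Q and 48.0 ± 4.70 CPM for 0Q (SD, n = 3 each). DDIT3 (CHOP), a transcription factor of the integrated stress response, averaged 7.30 ± 0.862 CPM for 100Q and 10.4 ± 2.14 CPM for 0Q. The groups of both lay apart, in opposite directions, as did those of 10.6% of all tested genes in either direction. Their log2 fold changes were 0.22 (95% interval -0.026 to 0.47) and -0.53 (-1.13 to 0.067), and neither passed.

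**Figure D5:**
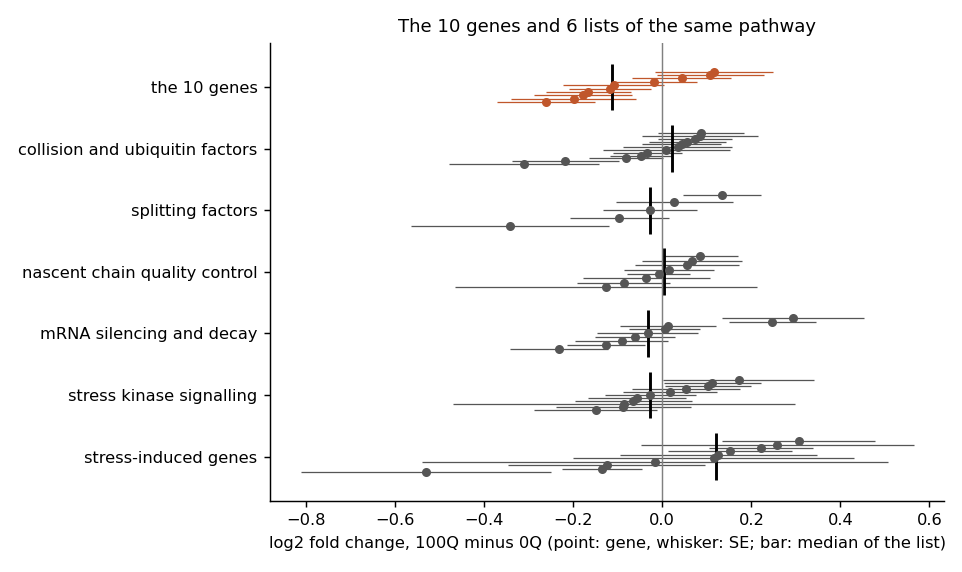
Log2 fold change (100Q minus 0Q, x axis) of the 10 genes (orange) and of the genes of 6 lists of the pathway (grey), 1 point per gene with its SE, and the median of each list as a bar. Medians run from -0.11 for the 10 genes to 0.12 for stress-induced genes, and the widest value is DDIT3 at -0.53.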

How the data were processed

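The table deposited by the authors holds estimated counts per Ensembl gene for 6 libraries, not normalized, per the file headers. Fractions stand in 9.05% of its values. FastQC, STAR and RSEM are named in the submitters' processing notes. The genome is hg38 per the series design, while annotation, strand setting and versions were not given in the sources used here. RNA was extracted with TRIzol and libraries made by MSR-seq, per the labels' protocols. Of 63086 identifiers, 62541 matched GENCODE release 44 without their version, which gave symbols, coordinates (1-based, hg38), lengths and coding sequences (MANE Select transcript, for 9 of the 10 genes, else the longest coding one).

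Counts were rounded, and genes were compared by edgeR 4.0.16 (R 4.3.3) with its quasi-likelihood test, with TMM factors, the default filter (minimum count 10) and Benjamini-Hochberg adjustment over all tested genes. Ratios of partner genes used counts plus 0.5 per kb. Alternatives were RLE factors, library size only, other filters, a replicate block, DESeq2 1.42.0, limma-voom (limma 3.58.1) and leaving out each library. The 10 genes and the lists were chosen with earlier results of these data known. Named genes were the 10, the 2 with the smallest p of each list, the markers and the 3 nearest to the gene with the smallest p. Sampling noise was exceeded in every pair of replicates (chi-square over degrees of freedom, 5.22 to 14.4). Counting errors cover counting alone, since PCR copies of a molecule may be counted more than once.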

Additional observations from a re-analysis of the deposited data

How the results depend on the processing

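None of the 10 genes and none of the 55 further pathway genes passed under any of 13 other settings, each with 1 choice changed. The count over all genes, 2, was 71 with no filter on low counts, 1 with a mean count of at least 50, 11 with DESeq2, 1 with limma-voom and 0 to 6 when a library was left out. The median log2 fold change of the 10 genes was -0.18 to -0.064 when a library was left out. Signs turned for ZNF598 with library size only (0.00091) and over the leave-outs (-0.072 to 0.066), and for ASCC3 over the leave-outs (-0.053 to 0.15); the cause was not tested. When a library was left out, differences of ratios ran from -0.18 to 0.080 for ASCC3 over ASCC2, -0.077 to 0.051 for GIGYF2 over EIF4E2, -0.43 to -0.16 for HBS1L over PELO, -0.22 to -0.076 for NEMF over LTN1 and 0.083 to 0.23 for ZNF598 over EDF1. The other 8 genes kept their sign in all 13 settings, with log2 fold changes of -0.28 to -0.043 for EDF1, 0.018 to 0.20 for ASCC2, -0.30 to -0.23 for NEMF, -0.18 to -0.033 for LTN1, -0.28 to -0.13 for MAP3K20, -0.17 to -0.085 for GIGYF2, 0.049 to 0.18 for PELO and -0.25 to -0.080 for HBS1L. NEMF had an unadjusted p of 0.0293 to 0.0948, under 0.05 in 7 of 13. EDF1 was under 0.05 in 1 of 13, without 100Q replicate 2 (edgeR, unadjusted p = 0.0290). HBS1L was so in 1 of 13, without 100Q replicate 1 (edgeR, unadjusted p = 0.0272). With the length of the coding transcript, the median level was 11.0 CPM per kb, against 7.83.

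Replicate numbers are shared by the groups, but whether they pair the libraries is not settled here. Correlations of deviations between same-numbered libraries were 0.0014, -0.020 and 0.081, and 1 of 3 numbers correlated best with itself. With the replicate block, 3 genes passed over all, none of the 10, whose median was -0.11. Depth limits MAP3K20 and PELO most, with 111 and 148 counts in 100Q replicate 2.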
